A study of Mus musculus with 6 samples.

Results

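p53, encoded by Trp53 in the mouse, and 9 genes of its stress response were followed in thymocytes of mice labelled as knock-out for Tcf7, which encodes the T-lineage transcription factor TCF-1. The 10 genes were picked by name, at a time when earlier results of these data were known: Trp53, Mdm2, Trp53inp1, Ccng1, Zmat3, Sesn1, Sesn2, Phlda3, Zfp365 and Ddit4. All 10 were found among the 26332 genes of the deposited count table, and all 10 passed the filter on low counts, which kept 13294 genes. The RNA came from thymi of C57BL/6 mice. There were 2 Tcf7 knock-out mice (KO 1 male, KO 2 female) and 4 wild type mice (WT 1 to 3 female, WT 4 male), 1 library each. The labels name neither the Tcf7 allele nor a Cre driver, and they give no age and no treatment. Cells were sorted as double negative 3 (DN3) thymocytes, which carry CD25 and lack CD44, TCRβ, CD3, CD8, NK1.1 and binding of a CD1d tetramer. DN3 cells rearrange the gene of the T-cell receptor β chain.

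p53 is a transcription factor that is held at a low protein level by the ubiquitin ligase MDM2 and accumulates when DNA is damaged or growth signals are disturbed. It then switches on genes that halt the cell cycle, repair DNA, restrain growth through AKT and mTORC1, or start cell death, and it switches on Mdm2 itself, which closes a feedback loop. In early thymocytes the cutting of receptor genes makes DNA breaks, and p53 takes part in the checkpoint that removes DN3 cells whose receptor chain failed. Much of the control of p53 acts on the protein, which counts of RNA do not show.

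Total counts were 19589938 in KO 1 and 13673860 in KO 2, against 23711513 to 41666797 in WT. Tcf7 itself stood at 1133 and 1022 CPM (counts scaled to a fixed library size) in KO 1 and KO 2 and at 2094 to 2326 CPM in WT, so its transcripts were reduced and not absent. The 10 DN3 markers summed to 8225 and 8014 CPM in KO 1 and KO 2, and to 9621 to 10490.5 CPM in WT. Of these 10, 5 fell (Il2ra, Ptcra, Notch3, Cd3g and Hes1), 1 rose (Dtx1) and 4 did not pass, where 16.5% of all genes fell and 14.1% rose. Rag1, which did not pass, had 521 CPM in KO 1 and 1953 CPM in KO 2, against 1476 to 1925 CPM in WT. The KO libraries differed from each other, also in markers of other cells. The summed level of 8 markers of double-positive or later T cells was 464 CPM in KO 1, 2145 CPM in KO 2 and 11.1 to 24.8 CPM in WT, and 7 of the 8 rose. The summed level of 10 B-cell markers was 544 CPM in KO 1, 1115 CPM in KO 2 and 236 to 265 CPM in WT, and 6 of the 7 tested rose. Ighm alone made up most of this sum, with 522 CPM in KO 1, 877 CPM in KO 2 and 185 to 220 CPM in WT. Cd79b, which did not pass, had 10.8 CPM in KO 1 and 62.5 CPM in KO 2, against 42.4 to 50.8 CPM in WT. Ms4a1 and Pax5, which define B cells, were at 36.0 and 7.54 CPM in KO 2 and had no count in KO 1 or in any WT library. The part of these cells in the results was not tested. In bulk RNA, fewer cells that express a gene and less RNA per cell cannot be told apart.

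Of the 10 genes, 3 rose in KO and none fell. Zfp365 rose 12.5-fold, Ddit4 3.52-fold and Sesn1 1.58-fold. The other 7, among them Trp53, Mdm2 and Ccng1, did not pass, and for 3 of these 7 the KO libraries lay far apart: Zmat3 and Phlda3 were high in KO 1 and low in KO 2, and Trp53inp1 was high in KO 2. The test was edgeR's quasi-likelihood test with sex in the model, at a Benjamini-Hochberg adjusted p under 0.05. Over all 13294 genes it called 14.1% higher and 16.5% lower in KO, so 3 rises among 10 genes is a count in a background where 30.7% of genes were called. With limma-voom and weights per genotype, 2 of the 10 rose (Zfp365 and Ddit4) and none fell, against 7.42% and 3.86% of all genes. DESeq2 called 4 of the 10 higher, the same 3 as edgeR and Trp53inp1. It called 2406 genes higher and 2744 lower among the 17878 genes it fitted, not all of which had an adjusted p. The median log2 fold change was 0.44 for the 10 genes and -0.04 for all genes tested. The count changed with single libraries, and so did that of all genes. It was 6 rises and 2 falls without KO 1 or without WT 4, where 30.3% and 29.3% of all genes were called higher and 31.6% and 33.6% lower. It was 6 rises and no fall without KO 2, where 31.3% were called higher and 37.3% lower. Without WT 1, WT 2 or WT 3 it was 2 rises and no fall, with 6.7%, 6.7% and 6.8% of all genes higher and 5.9%, 6.3% and 6.4% lower. With sex in the model, leaving out KO 1 or WT 4 compares KO 2 with the 3 WT females, and leaving out KO 2 compares KO 1 with WT 4 alone. These fits take their spread from WT and assume that the lone KO library varies alike, so their fold changes are given for the genes that follow as values, with no p.

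**Figure D1:**
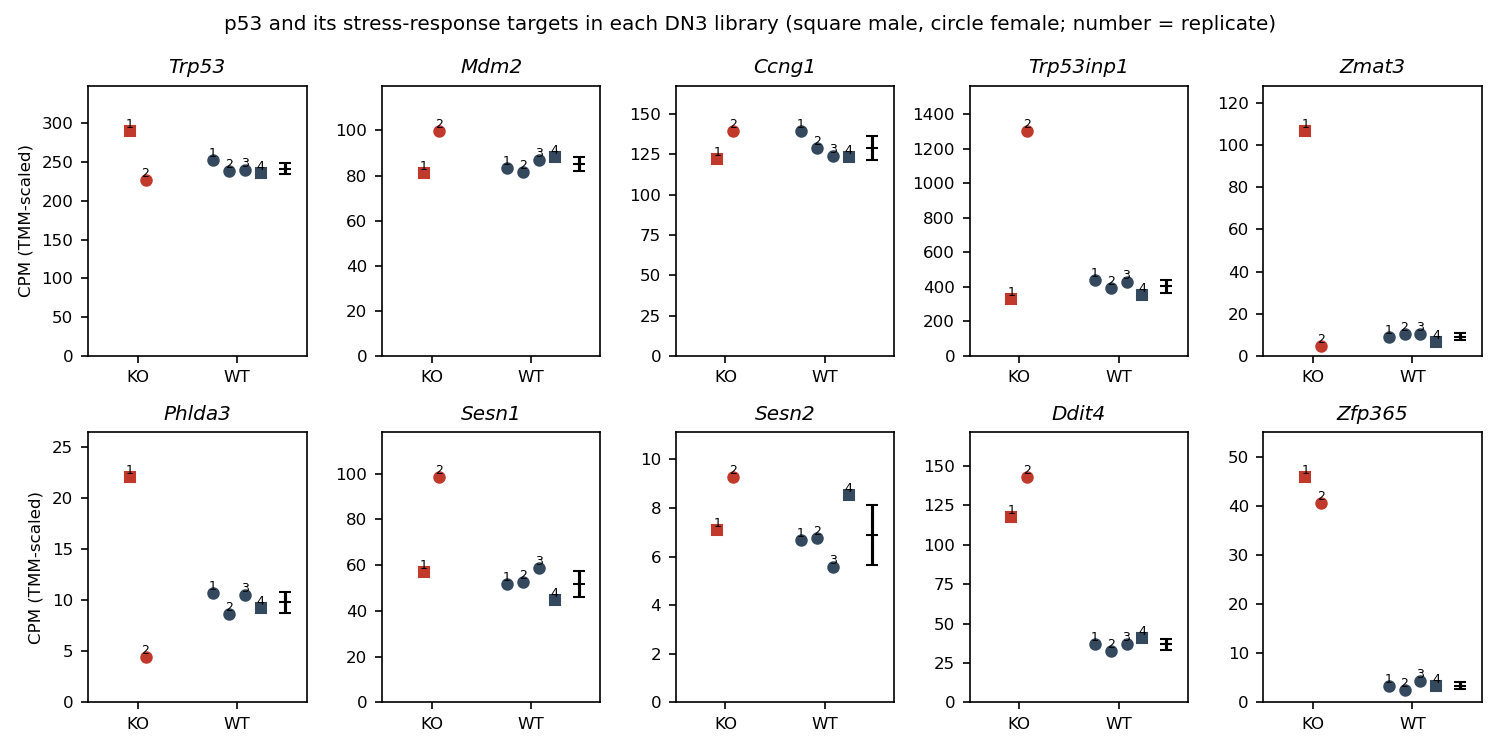
CPM of the 10 genes in each library, KO on the left and WT on the right of each panel; squares are males, circles females, digits the replicate, and the black mark is the WT mean with its SD (n = 4). Both KO libraries lie above all WT libraries for Zfp365 and Ddit4, and KO 1 and KO 2 lie on opposite sides of the WT range for Zmat3 and Phlda3.

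Trp53 was the most abundant of the 10 genes per length in WT, and its RNA did not pass the test. It is located on chromosome 11, 69580348 to 69591873 of GRCm38.p6. Trp53 had 289.8 CPM in KO 1 and 226 CPM in KO 2, against 252, 239, 239 and 235 CPM in WT 1 to 4. KO 1 was above and KO 2 below the whole WT range, which was narrow (coefficient of variation 3.10%). The log2 fold change was 0.06 (SE 0.109, edgeR adjusted p = 0.715). It was 0.29 without KO 2, -0.09 without KO 1 and -0.11 without WT 4. A processed pseudogene, Trp53-ps, lies on chromosome 17, and how its reads were counted is not given in the sources used here, so the level of Trp53 is less certain.

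Mdm2 and Ccng1, whose products both act back on p53, did not pass either. Mdm2, on chromosome 10, encodes the ligase that marks p53 for destruction. It had 81.1 CPM in KO 1 and 99.8 CPM in KO 2, against 83.5, 81.6, 87.0 and 88.1 CPM in WT 1 to 4. KO 1 lay just below the WT range and KO 2 above it (log2 0.10, SE 0.103, edgeR adjusted p = 0.492). The log2 fold change of Mdm2 was -0.13 without KO 2, 0.26 without KO 1 and 0.25 without WT 4. Ccng1, on chromosome 11, encodes cyclin G1, which recruits a phosphatase to MDM2. Ccng1 had 121.9 CPM in KO 1 and 139.5 CPM in KO 2, against 139.2, 128.9, 124.2 and 123.1 CPM in WT 1 to 4. KO 1 lay just below the WT range and KO 2 just above it. Its log2 fold change was 0.05 (SE 0.0788, edgeR adjusted p = 0.665), and it passed in none of 14 alternative analyses.

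The promoters of these 3 genes each hold a match to the p53 half-site, the 10-base element of which p53 tetramers bind pairs. They are shown with the later of the 2 Sesn1 start sites, the other member promoter with a match, and with the promoters of Zfp365 and Ddit4, the pair that rose most, which hold none. Each is the RefSeq sequence of 250 bases before to 50 after the start site (GRCm38.p6), and capitals mark the half-site.
Trp53, chr11:69580109-69580408, plus strand: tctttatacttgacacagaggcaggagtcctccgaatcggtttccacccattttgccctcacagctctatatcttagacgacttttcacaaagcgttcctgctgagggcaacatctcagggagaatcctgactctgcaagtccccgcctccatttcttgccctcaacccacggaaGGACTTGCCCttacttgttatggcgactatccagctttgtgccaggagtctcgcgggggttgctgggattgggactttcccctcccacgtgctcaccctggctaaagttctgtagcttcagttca
Mdm2, chr10:117710709-117711008, minus strand: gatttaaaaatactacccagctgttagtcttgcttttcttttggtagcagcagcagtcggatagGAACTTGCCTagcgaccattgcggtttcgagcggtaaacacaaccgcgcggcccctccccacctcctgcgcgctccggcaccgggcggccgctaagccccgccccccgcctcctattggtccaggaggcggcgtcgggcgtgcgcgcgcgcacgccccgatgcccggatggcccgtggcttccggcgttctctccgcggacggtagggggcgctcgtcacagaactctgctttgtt
Ccng1, chr11:40755237-40755536, minus strand: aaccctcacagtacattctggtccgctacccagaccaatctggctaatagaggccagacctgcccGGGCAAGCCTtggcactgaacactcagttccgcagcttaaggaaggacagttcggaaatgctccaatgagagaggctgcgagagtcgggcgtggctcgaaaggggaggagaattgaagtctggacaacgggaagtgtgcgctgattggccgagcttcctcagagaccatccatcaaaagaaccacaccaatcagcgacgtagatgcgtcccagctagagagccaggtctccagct
Sesn1, chr10:41887189-41887488, plus strand: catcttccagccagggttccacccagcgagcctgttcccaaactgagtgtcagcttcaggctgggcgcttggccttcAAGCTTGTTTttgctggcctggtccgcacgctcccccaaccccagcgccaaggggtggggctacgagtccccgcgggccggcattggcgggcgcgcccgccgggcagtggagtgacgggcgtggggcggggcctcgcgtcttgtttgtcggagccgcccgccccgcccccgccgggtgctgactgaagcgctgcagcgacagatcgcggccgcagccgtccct
Zfp365, chr10:67912613-67912912, minus strand: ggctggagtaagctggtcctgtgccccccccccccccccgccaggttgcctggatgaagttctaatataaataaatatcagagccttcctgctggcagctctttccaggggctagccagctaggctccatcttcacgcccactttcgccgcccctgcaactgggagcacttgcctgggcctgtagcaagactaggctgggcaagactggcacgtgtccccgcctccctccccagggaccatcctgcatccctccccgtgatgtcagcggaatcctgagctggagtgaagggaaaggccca
Ddit4, chr10:59951721-59952020, minus strand: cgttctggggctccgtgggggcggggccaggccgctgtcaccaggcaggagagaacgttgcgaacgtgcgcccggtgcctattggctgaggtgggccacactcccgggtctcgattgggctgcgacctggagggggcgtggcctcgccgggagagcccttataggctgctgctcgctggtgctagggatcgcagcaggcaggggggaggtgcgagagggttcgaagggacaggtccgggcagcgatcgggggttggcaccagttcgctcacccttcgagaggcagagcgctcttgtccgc
The table held 9 promoters of 8 members (2 of Sesn1), with no entry for Trp53inp1 and Zmat3. A half-site was found in 4 of these 9, and in 8.36% of all 32851 promoters of the same length. The matches begin 75 bases before the start site of Trp53, 186 before that of Mdm2, 185 before that of Ccng1 and 173 before that of Sesn1. The half-site reads the same way on both strands, and it overlapped no other motif searched. The TCF motif was searched as CTTTGAT and as CTTTGAA on both strands: none of the 9 promoters held either, against 3.73% and 5.13% of all promoters. A match is a description of these letters and not a bound site.

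For Trp53inp1, Zmat3 and Phlda3, the KO libraries were far apart. Trp53inp1 (chromosome 4), whose product joins p53 in nuclear bodies and promotes cell death and autophagy, had 328 CPM in KO 1 and 1304 CPM in KO 2. The WT level was 438, 395, 427 and 356 CPM in WT 1 to 4. KO 2 was 3.23-fold above the WT mean, while KO 1 was below every WT library. The log2 fold change was 1.00 (SE 0.359, edgeR adjusted p = 0.0916), and DESeq2 called it higher (1.01, adjusted p = 0.0192). It was -0.13 without KO 2, 1.65 without KO 1 and 1.63 without WT 4. The summed markers of B cells and of double-positive or later T cells were higher in KO 2 than in KO 1 as well (1115 and 544 CPM, and 2145 and 464 CPM), and their part was not tested.

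Zmat3 (chromosome 3), which encodes an RNA-binding zinc finger protein that shapes splicing downstream of p53, had the widest gap between the KO libraries among the 10 genes. It stood at 107 CPM in KO 1 and 4.63 CPM in KO 2 (2084 and 62 counts), against 9.13, 10.4, 10.4 and 6.82 CPM in WT 1 to 4. KO 1 was 11.6-fold above the WT mean, and KO 2 was below all 4 WT libraries, so KO 1 exceeded KO 2 by 23.0-fold. The exact 95% Poisson interval was 102 to 111 CPM in KO 1 and 3.55 to 5.93 CPM in KO 2, and it covers counting error only. The WT libraries differed from each other by at most 1.53-fold. The log2 fold change was 1.35 with an SE of 1.45 (edgeR adjusted p = 0.519). It was 3.95 without KO 2, -1.09 without KO 1 and -1.10 without WT 4, so its direction followed the KO library kept.

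Phlda3 (chromosome 1), which encodes a lipid-binding protein that keeps AKT from the membrane, had the same order. It was at 22.0 CPM in KO 1 and 4.48 CPM in KO 2, against 10.7, 8.65, 10.5 and 9.28 CPM in WT 1 to 4. KO 1 was 2.25-fold above the WT mean and KO 2 was 2.19-fold below it. The exact 95% Poisson intervals, 20.0 to 24.2 CPM in KO 1 and 3.42 to 5.76 CPM in KO 2, did not meet. The log2 fold change was -0.05 (SE 0.598, edgeR adjusted p = 0.955). It was 1.23 without KO 2, -1.15 without KO 1 and -1.16 without WT 4, so its direction followed the KO library kept.

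**Figure D2:**
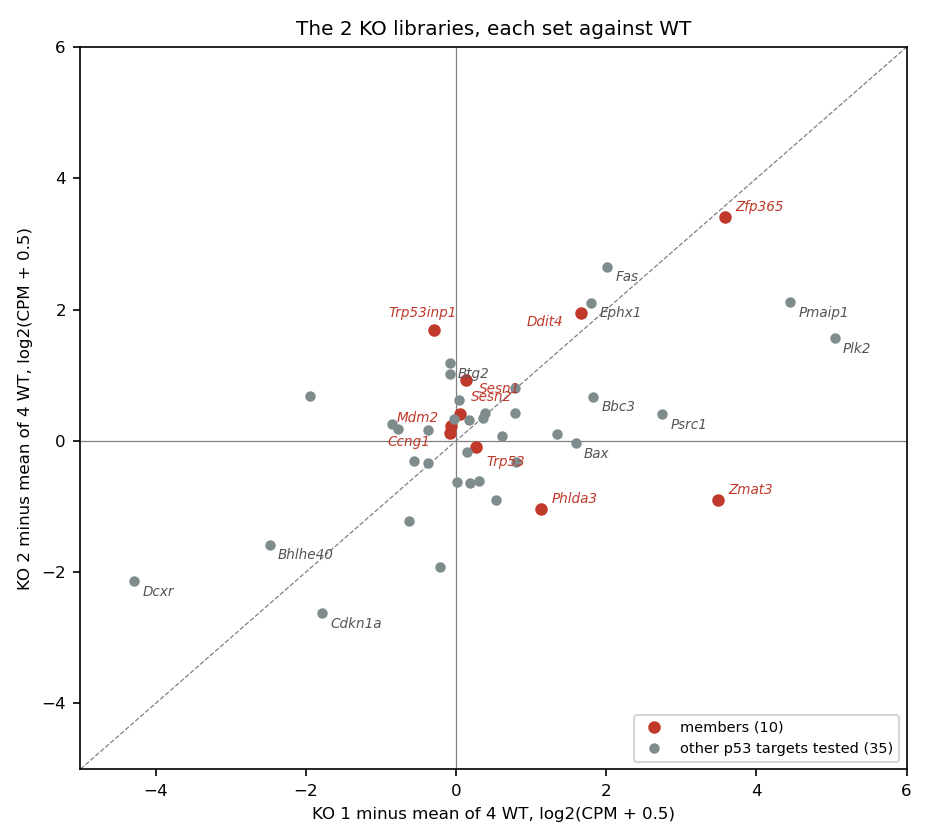
Difference of KO 1 (x axis) and KO 2 (y axis) from the mean of the 4 WT libraries, in log2(CPM + 0.5), for the 10 genes (red) and the 35 other p53 targets tested (grey); the dashed line marks equal differences. Zfp365 (3.58 and 3.41) and Ddit4 (1.67 and 1.94) lie near that line, Zmat3 (3.48 and -0.90) and Phlda3 (1.13 and -1.04) to its right, and Trp53inp1 (-0.29 and 1.69) to its left.

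Of the brakes on mTORC1, the kinase complex that drives growth when nutrients are plentiful, Ddit4 and Sesn1 rose and Sesn2 did not pass. Ddit4 (chromosome 10, 59949675 to 59951770), also called REDD1, encodes a protein that restrains mTORC1 under stress and is also induced by hypoxia and glucocorticoids. It had 118 CPM in KO 1 and 143 CPM in KO 2, against 37.0, 32.8, 36.8 and 40.9 CPM in WT 1 to 4. Both KO libraries exceeded the highest WT library by a wide margin. Ddit4 rose by 1.82 on the log2 scale (SE 0.126, edgeR adjusted p = 0.000834). It passed in every alternative that kept both KO libraries and WT 4. Its log2 fold changes over all 14 alternatives were 1.51 to 2.02.

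Sesn1 and Sesn2 encode sestrins, which respond to stress and amino acid supply and inhibit mTORC1. Sesn1 (chromosome 10) had 56.9 CPM in KO 1 and 98.3 CPM in KO 2, against 51.6, 52.4, 58.7 and 44.7 CPM in WT 1 to 4. KO 2 stood above every WT library, whereas KO 1 lay below WT 3. Sesn1 rose by 0.66 on the log2 scale (SE 0.134, edgeR adjusted p = 0.0199), and over the alternatives by 0.34 to 0.88. The call was lost with limma-voom and weights per genotype (adjusted p = 0.141), with no sex term in edgeR (0.0922), and without WT 1, WT 2 or WT 3 (0.0732, 0.0724 and 0.0665). It was also lost in edgeR with a replicate block in place of the sex term (adjusted p = 0.364). Set against WT of the same sex, the log2(CPM + 0.5) of Sesn1 was 0.34 higher in KO 1 and 0.85 higher in KO 2. Sesn2 (chromosome 4) was low in all libraries. It had 7.11 CPM in KO 1 and 9.25 CPM in KO 2, against 6.66, 6.77, 5.56 and 8.54 CPM in WT 1 to 4. The groups overlapped, and Sesn2 did not pass (log2 0.23, SE 0.242, edgeR adjusted p = 0.514). It was -0.28 without KO 2, 0.56 without KO 1 and 0.54 without WT 4.

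Zfp365 (chromosome 10, 67886105 to 67912662) had the highest fold change of the 10 genes. In human cells its counterpart, ZNF365, is induced by p53 and helps to keep the genome stable when replication stalls. Zfp365 had 45.9 CPM in KO 1 and 40.7 CPM in KO 2, against 3.43, 2.59, 4.37 and 3.30 CPM in WT 1 to 4. The KO libraries were close to each other and far above every WT library. The rise was 3.65 on the log2 scale (SE 0.223, edgeR adjusted p = 0.000612), and limma-voom with weights per genotype gave an adjusted p of 8.76e-07. Zfp365 passed in every alternative that kept both KO libraries and WT 4. Its log2 fold changes over all 14 alternatives were 3.55 to 3.85. Its counts were 896 and 545 in KO 1 and KO 2, against 142, 62, 114 and 94 in WT 1 to 4.

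**Figure D3:**
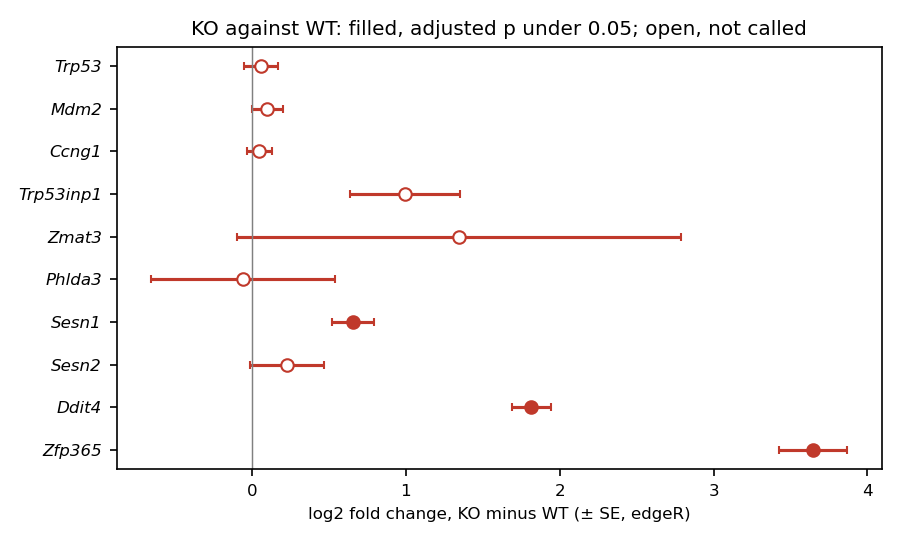
Log2 fold change of KO minus WT from edgeR for the 10 genes, with bars of 1 SE; filled points passed at an adjusted p under 0.05 and open points did not. Zfp365 (3.65), Ddit4 (1.82) and Sesn1 (0.66) passed, and the widest bar is that of Zmat3 (SE 1.45).

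Per length of gene, in RPKM (CPM divided by the length in kilobases), the order of the 10 genes was not the same in the KO libraries and in WT. In KO 1 the order began with Trp53 at 155 RPKM, then Ddit4 at 69.9 RPKM and Trp53inp1 at 60.4 RPKM. In KO 2 Trp53inp1 led with 240.2 RPKM, ahead of Trp53 at 121 RPKM and Ddit4 at 84.7 RPKM. In WT the mean levels were 129 RPKM for Trp53, 74.4 for Trp53inp1, 37.0 for Ccng1, 28.1 for Mdm2, 21.9 for Ddit4, 15.5 for Sesn1, 6.68 for Phlda3, 2.59 for Sesn2, 1.18 for Zmat3 and 0.804 for Zfp365. The ranges of the 4 WT libraries separated all neighbours in this order except Zmat3 and Zfp365. The low end differed most: Zmat3 was at 13.7 RPKM in KO 1 and 0.594 RPKM in KO 2, and Zfp365 was at 10.8 and 9.55 RPKM.

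**Figure D4:**
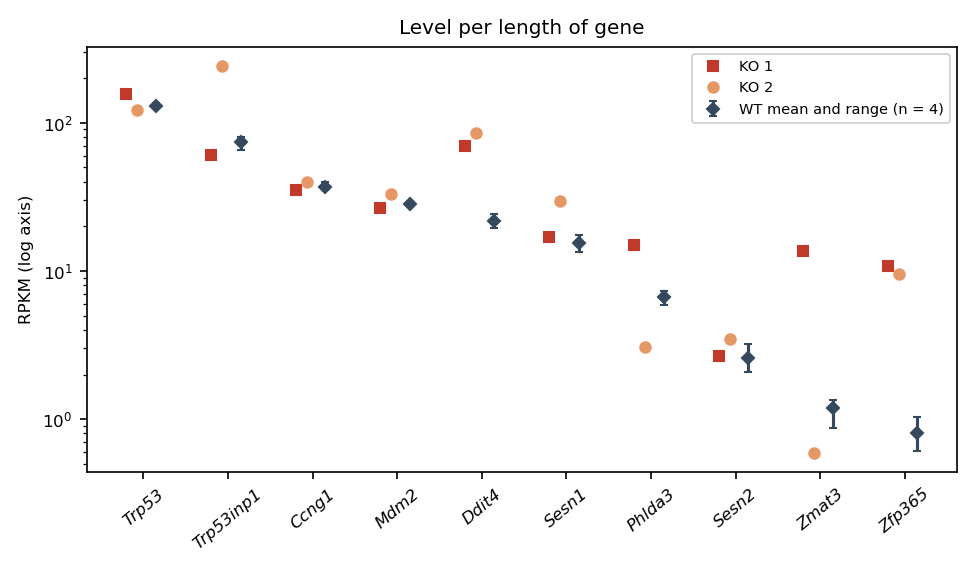
RPKM on a log axis for the 10 genes, ordered by the WT mean; squares are KO 1, circles KO 2, and diamonds the WT mean with the range of the 4 WT libraries. Ddit4 and Zfp365 lie above the WT range in both KO libraries, and Zmat3 and Phlda3 lie above it in KO 1 and below it in KO 2.

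How far the KO libraries differed was also counted against all genes, with no test since each is a single library. KO 1 was at least 2-fold above the highest WT library, on CPM + 0.5, for 4 of the 10 genes (Zfp365, Zmat3, Ddit4 and Phlda3), against 8.09% of all genes tested. KO 2 was so for 3 of the 10 (Zfp365, Trp53inp1 and Ddit4), against 7.39% of all genes. Neither library was 2-fold below the lowest WT library for any of the 10, where 11.7% of all genes were so in KO 1 and 7.63% in KO 2. With no limit on size, KO 1 was above the highest WT library for 5 of the 10 and below the lowest for 3, against 40.5% and 46.5% of all genes. KO 2 was above it for 7 of the 10 and below for 3, against 38.1% and 44.9% of all genes. Both KO libraries lay outside the WT range on the same side for 2 of the 10 (both above), against 51.5% of all genes tested. KO 1 and KO 2 were at least 4-fold apart on CPM + 0.5 for Zmat3 and Phlda3, against 4.51% of all genes. In edgeR's test of whether KO 1 and KO 2 differed by unlike amounts from WT of their own sex, 8 of the 10 passed, all but Ccng1 and Zfp365, against 54.7% of all genes. KO 1 was male and KO 2 female, so the sex and the mouse cannot be told apart in the gap between them.

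Other p53 targets, 40 genes from textbook knowledge that are not among the 10, were mixed in direction. Of the 35 tested, 8 rose, 5 fell and 22 did not pass (37.1% called, against 30.7% of all genes), with a median log2 fold change of 0.18 against -0.04 for all genes. The number called was 5 without WT 1, WT 2 or WT 3, where 12.6%, 12.9% and 13.2% of all genes were called. It was 28 without WT 4, 29 without KO 1 and 28 without KO 2, where 62.9%, 61.9% and 68.5% of all genes were called. Cdkn1a, which encodes the cell cycle inhibitor p21 and is the best known p53 target, fell. It had 22.6 and 12.4 CPM in KO 1 and KO 2, against 81.2, 80.8, 76.1 and 77.8 CPM in WT 1 to 4. Its log2 fold change was -2.28 (SE 0.226, edgeR adjusted p = 0.00236), and -2.68 to -1.80 over all 14 alternatives. Cdkn1a passed in every alternative that kept both KO libraries and WT 4. Pmaip1, Bbc3 and Fas, whose products start cell death, rose. Pmaip1, which encodes NOXA, had 76.4 and 14.7 CPM in KO 1 and KO 2, against 2.32 to 3.50 CPM in WT (log2 3.38, 2.14 to 5.03 over the alternatives, edgeR adjusted p = 0.0191). Its call was lost without WT 1, 2 or 3 (edgeR adjusted p = 0.0599, 0.0662 and 0.0594). Bbc3, which encodes PUMA, had 31.9 and 14.0 CPM in KO 1 and KO 2, against 8.43 to 8.86 CPM in WT (log2 1.21, 0.69 to 1.91 over the alternatives, edgeR adjusted p = 0.0333), and its call was lost in the same way (0.0889, 0.0871 and 0.0889). Fas, a death receptor gene, had 7.11 and 11.4 CPM in KO 1 and KO 2 and 0.918 to 1.69 CPM in WT (log2 2.75, edgeR adjusted p = 0.00472). With a replicate block in place of the sex term, the calls of Bbc3 and Fas were lost.

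The order of the KO libraries was mixed among these targets. Some had, like Zmat3 and Phlda3, a higher level in KO 1 than in KO 2, and others, such as Fas and Btg2, a lower one. Bax, which encodes a pore-forming death protein, had 165 CPM in KO 1 and 53.2 CPM in KO 2, against 50.9 to 57.9 CPM in WT, so KO 2 was within the WT range. It did not pass (log2 0.65, edgeR adjusted p = 0.216). It was 1.50 without KO 2 and 0.02 without KO 1. The polo-like kinase gene Plk2 had 39.9 CPM in KO 1 and 3.13 CPM in KO 2, against 0.575 to 0.893 CPM in WT (log2 3.76, 1.97 to 6.04 over the alternatives, edgeR adjusted p = 0.0435). Its call was lost without WT 1, 2 or 3 (edgeR adjusted p = 0.0951, 0.0990 and 0.115) and with a replicate block. Psrc1, chosen after its values were seen, had 54.4 and 10.4 CPM in KO 1 and KO 2 and 7.24 to 8.59 CPM in WT (log2 1.51, edgeR adjusted p = 0.120). It passed with no sex term (0.0309), in DESeq2 (0.0165) and in limma-voom with weights per genotype (adjusted p = 0.0314). Btg2, an antiproliferative gene, was higher in KO 2 as Trp53inp1 was, with 201 CPM in KO 1 and 485 CPM in KO 2, against 172 to 235 CPM in WT (log2 0.75, edgeR adjusted p = 0.0343). Its call was lost without WT 1, 2 or 3 (edgeR adjusted p = 0.107, 0.105 and 0.104), with no sex term (0.162) and with a replicate block. At least 2-fold above the highest WT library, on CPM + 0.5, were 8 of the 35 in KO 1 and 5 of the 35 in KO 2, against 8.09% and 7.39% of all genes. At least 2-fold below the lowest were 4 of the 35 in KO 1 and 5 of the 35 in KO 2, against 11.7% and 7.63% of all genes. The other rises were Pml, the gene of a nuclear body protein (192 and 194 CPM in KO 1 and KO 2, against 109 to 113 CPM in WT), Ephx1, a detoxifying hydrolase gene (9.83 and 12.2 CPM in KO 1 and KO 2, against 1.91 to 2.88 CPM in WT) and, by 1.29-fold, Ppm1d, a phosphatase gene that shuts p53 signalling off. The other falls were Bhlhe40, Dcxr, Ei24 and Xpc, a DNA repair gene, which fell 1.29-fold. The calls of Ppm1d, Ei24, Xpc and Dcxr were lost without WT 1, 2 or 3 (edgeR adjusted p = 0.0851, 0.0561, 0.0853 and 0.130 without WT 2), and those of Bhlhe40, Ppm1d, Ei24, Xpc and Dcxr with limma-voom and weights per genotype (adjusted p = 0.153, 0.393, 0.0579, 0.350 and 0.140).

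Among 26 genes that act on p53, 1 rose, 8 fell and 17 did not pass (34.6% called, against 30.7% of all genes), with a median log2 fold change of -0.12. Cdkn2a, whose ARF product blocks MDM2, had 35.7 CPM in KO 1 and 2.09 CPM in KO 2, against 0.0418 to 0.115 CPM in WT, where it had 1 to 3 counts a library (edgeR adjusted p = 0.00498). Like Zmat3, Cdkn2a was far higher in KO 1 than in KO 2. Counts per gene do not tell its ARF transcript from others of the gene. Mdm4, the relative of Mdm2 that also inhibits p53, had 103 and 58.8 CPM in KO 1 and KO 2, against 109.8 to 139 CPM in WT (log2 -0.74, edgeR adjusted p = 0.0170). The damage kinase genes Atm, Atr and Prkdc fell 1.28-, 1.41- and 1.42-fold (edgeR adjusted p = 0.0167, 0.0119 and 0.0295), and Chek2 did not pass (0.538). Wrap53, the neighbour of Trp53, fell 1.65-fold (edgeR adjusted p = 0.00495), a call lost with limma-voom and weights per genotype (adjusted p = 0.209) and with a replicate block (0.142). Huwe1, Nbn and Trp53bp1 were the other falls. The number called in this list was 9. It was 2 without WT 1, WT 2 or WT 3, where 12.6%, 12.9% and 13.2% of all genes were called. The calls of Mdm4, Atm, Atr, Prkdc, Huwe1, Nbn and Trp53bp1 were lost without WT 1, 2 or 3. With limma-voom and weights per genotype, 2 of the list were called, against 11.3% of all genes.

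Of 9 paralogs of the 10 genes, 5 were tested, and of these 3 rose and 1 fell, where 14.1% and 16.5% of all genes did. Trp63, Trp73 and Phlda2 had no count in any library. Ccng2, the relative of Ccng1, had 98.3 and 169.6 CPM in KO 1 and KO 2, against 51.1, 52.4, 55.0 and 43.7 CPM in WT 1 to 4. It rose 2.80-fold (edgeR adjusted p = 0.00144), whereas Ccng1 did not pass. The difference between the paralogs was not tested. Sesn3, the remaining sestrin gene, had 59.8 and 89.7 CPM in KO 1 and KO 2, against 33.4 to 35.6 CPM in WT, and rose 2.23-fold (edgeR adjusted p = 0.00323). Phlda1 had 58.0 and 51.3 CPM in KO 1 and KO 2, against a mean of 3.72 ± 1.66 CPM in WT (SD, n = 4), and rose 18.3-fold (edgeR adjusted p = 0.00239; log2 3.56 to 5.28 over the alternatives). Ccng2, Sesn3 and Phlda1 passed in every alternative that kept both KO libraries and WT 4. Mdm4 was the fall.

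The machinery on which sestrins and REDD1 act was mostly not called. Of 23 genes of the mTORC1 pathway, 1 rose, 2 fell and 20 did not pass (13.0% called, against 30.7% of all genes). Prkag1, a subunit gene of the energy sensor AMPK, had 64.8 and 53.1 CPM in KO 1 and KO 2, against 28.4 to 31.1 CPM in WT, and rose 1.94-fold (edgeR adjusted p = 0.00248). Eif4ebp1, whose product blocks translation until mTORC1 phosphorylates it, had 0.768 and 2.24 CPM in KO 1 and KO 2, against 8.22 to 10.8 CPM in WT (edgeR adjusted p = 0.00604), a call lost with limma-voom and weights per genotype (adjusted p = 0.176). Mtor fell 1.25-fold (edgeR adjusted p = 0.0210), a call lost without WT 1, 2 or 3 (0.0982, 0.0824 and 0.0955). The number called was 2 without WT 1, 2 or 3, where 12.6%, 12.9% and 13.2% of all genes were called.

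The genes closest in pattern to Trp53 and to Mdm2 were sought among 10202 others with a mean of at least 5 CPM, by the root mean square distance of centred log2 CPM over the 6 libraries. For Trp53 they were Rtcb, Eif2b1 and Rbm17 (distances of 0.018, 0.018 and 0.019 on the log2 scale). For Mdm2 they were Asrgl1, Son and Asxl2 (0.020, 0.020 and 0.022). None of these 6 passed the test of KO against WT. That was largely set by the choice, since Trp53 and Mdm2 did not pass over the same libraries.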

How the data were processed

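RNA from sorted DN3 thymocytes was made into libraries with a SMART-Seq kit, per the labels' protocols. The authors deposited whole-number read counts per gene and a gene length in bases (other), made with featureCounts per the submitters' processing notes. No source used here names the aligner or how strand was treated. The genes, lists and tests were chosen with earlier results of these data known. Counts were tested with edgeR 4.0.16 in R 4.3.3 (TMM scaling, filter at a count minimum of 10, robust quasi-likelihood test with sex as a term, 3 residual degrees of freedom). P-values were adjusted by Benjamini-Hochberg over 13294 genes. The SE is the log2 fold change divided by the root of F. CPM use TMM-scaled totals, and RPKM use the deposited lengths. Alternatives used RLE scaling, library totals, other filters, no sex term, DESeq2 1.42.0, limma 3.58.1 (voom), a replicate block, and each library left out. The fit was also run on simulated data, of which no result is given here. Named were the 10 genes, Tcf7, genes of the target, regulator and paralog lists that passed or were set by name, and up to 3 per direction of the other lists. Each library is 1 mouse. Total counts of 13673860 to 41666797 limit the precision of low genes: 3 counts equal 0.153 CPM in KO 1 and 0.219 CPM in KO 2.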

Additional observations from a re-analysis of the deposited data

Results flagged for a closer look

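For 8 of the 10 genes, KO 1 (male) and KO 2 (female) differed by unlike amounts from WT of their own sex, by edgeR's test of the genotype by sex interaction. The adjusted p was 1.25e-20 for Zmat3, 5.42e-19 for Trp53inp1, 2.15e-09 for Phlda3, 2.39e-05 for Trp53, 0.000227 for Ddit4, 0.000284 for Sesn1, 0.000879 for Mdm2 and 0.018 for Sesn2 (edgeR). Ccng1 and Zfp365 did not pass. The same test called 54.7% of all 13294 genes. Each KO sex is a single mouse, so sex and mouse cannot be told apart, and the spread came from the WT females alone.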

How the results depend on the processing

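Over 64 results and 14 alternatives, 689 of 884 values kept direction and side of the threshold, 112 lost a call, 18 gained one, 51 counts moved by over 1.5 times and 14 changed sign. With limma-voom and weights per genotype, 987 genes were higher and 513 lower in KO (11.3% of all genes), against 1878 and 2198 in the edgeR fit (30.7%). It called 2 p53 regulators, 2 integrated stress response genes and 1 mTORC1 pathway gene, and Phlda3 was at 0.23 on the log2 scale. Of the 23 genes of the mTORC1 pathway, 6 were called with library totals, where 31.1% of all genes were called. With DESeq2 it was 5, and no share of all genes was computed for that fit. With no sex term Phlda3 was at 0.44.

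With a replicate block in place of the sex term, 413 genes were higher and 335 lower in KO (5.6% of all genes). This block called 3 wider p53 targets, 1 p53 regulator, 2 integrated stress response genes, 1 mTORC1 pathway gene and 4 glucocorticoid or FOXO responsive genes, with Ccng1 at -0.039 and Phlda3 at 0.067. Deviations of same-numbered libraries from the mean of their genotype correlated at -0.11 (WT 1 with KO 1) and 0.033 (WT 2 with KO 2). With 2 KO libraries these deviations mirror each other. The correlations therefore cannot show whether same-numbered samples share more than a number.

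Leaving out each library in turn gave 881 to 4321 genes higher and 784 to 5152 lower in KO. It gave 2 to 6 of the 10 genes higher and 0 to 2 lower. The number called was 5 to 29 for wider p53 targets, 2 to 19 for regulators, 2 to 15 for integrated stress response, 2 to 13 for mTORC1, 7 to 15 for glucocorticoid or FOXO responsive genes and 3 to 5 for paralogs. The log2 fold change ran from -0.11 to 0.29 for Trp53, -0.13 to 0.26 for Mdm2, -0.13 to 1.65 for Trp53inp1, -0.027 to 0.11 for Ccng1, -1.10 to 3.95 for Zmat3, -0.28 to 0.56 for Sesn2 and -1.16 to 1.23 for Phlda3. The cause was not tested. Counts of 62 for Zmat3 and 60 for Phlda3 in KO 2 limit the precision of these levels.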

Other observations

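Stress genes outside the p53 pathway also differed, most of those called with a lower level in KO. Of 22 genes of the integrated stress response, which slows translation and switches on amino acid and redox genes, 18 were tested, 2 rose and 7 fell, where 14.1% and 16.5% of all genes did (median log2 fold change -0.37, and -0.04 for all genes). Ppp1r15a, which encodes the phosphatase subunit that ends this response, had 26.8 and 12.9 CPM in KO 1 and KO 2, against 52.6, 60.0, 49.7 and 120.3 CPM in WT 1 to 4 (log2 -2.11, edgeR adjusted p = 0.000463). Eif2ak3, the gene of the kinase PERK, had 80.5 and 146 CPM in KO 1 and KO 2, against a mean of 50.8 ± 2.08 CPM in WT (SD, n = 4) (edgeR adjusted p = 0.00753). The number called was 9. It was 2 without WT 1 and 3 without WT 2 or WT 3, where 12.6%, 12.9% and 13.2% of all genes were called.

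Ddit4 is also a glucocorticoid and FOXO target in other settings, and of 16 genes of that kind 5 rose and 5 fell, where 14.1% and 16.5% of all genes did. Sgk1, a kinase gene, had 79.6 and 54.1 CPM in KO 1 and KO 2, against 3.62 to 5.41 CPM in WT (edgeR adjusted p = 0.000649). Foxo1 had 88.4 and 190.1 CPM in KO 1 and KO 2, against 40.7 to 44.9 CPM in WT (edgeR adjusted p = 0.00409). Dusp1, a phosphatase gene, had 15.9 and 15.4 CPM in KO 1 and KO 2, against 38.3 to 53.6 CPM in WT (edgeR adjusted p = 0.00152), and Pik3ip1 had 128 and 146 CPM in KO 1 and KO 2, against 293 to 318 CPM in WT (edgeR adjusted p = 0.000997). Sgk1, Foxo1, Dusp1 and Pik3ip1 passed in every alternative that kept both KO libraries and WT 4.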
